A study of Mus musculus with 18 samples.

Results

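The transcripts described here are the mono-exon full-splice matches of nuclear-encoded genes: isoforms that consist of a single exon and match an annotated transcript. They were chosen from the isoform table by its own labels, as rows with the category full-splice match and the subcategory mono-exon whose gene is not encoded in the mitochondrial genome. The rule uses no read count. It found 1850 of the 114425 isoforms in the table, each from a different gene, and these carried 242226 of the 10234812 reads, or 2.37%. The 14 mitochondrially encoded mono-exon matches carried 2.35% of the reads and were left out by the rule.

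The libraries came from small extracellular vesicles (sEVs), the small membrane particles that cells release, and from the cells that released them, in primary cultures of mouse brain. There were 6 groups of 3 libraries: astrocyte sEVs, microglia sEVs, neuron sEVs, astrocyte cells, microglia cells and neuron cells. The labels give no strain, age or treatment. They leave it unsaid if replicate libraries came from separate cultures, and the spread behind the p-values may therefore be technical. Polyadenylated RNA was copied into full-length cDNA with a low-input kit, amplified again for 10 cycles and sequenced as PacBio long reads, per the labels' protocols. The sEV libraries were sequenced in 1 pool and the cell libraries in another, so sEV origin and sequencing pool cannot be told apart. The series set out to ask whether mRNA is packaged into sEVs in a way that depends on the cell type.

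Most mammalian genes are split by introns, and the spliced mRNA carries protein complexes deposited at its exon junctions. Genes made of a single exon skip that step. They include histone genes, many immediate early genes, Sox and POU transcription factor genes, clustered protocadherins, type I interferons, many receptor genes, retrogenes that arose by reverse transcription of an mRNA, processed pseudogenes, and a few abundant long non-coding RNAs. Some of these RNAs stay in the nucleus, as Malat1 does in nuclear speckles, and others are exported to the cytoplasm, as Norad is.

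A pair of X-linked retrogenes, Arxes1 and Arxes2, is shown by sequence because its members moved together and are near copies of each other. Both descend from a retrocopy of the signal peptidase subunit gene Spcs3 and are best known from mouse adipocytes. Of 872 member genes with a promoter window in RefSeq, Arxes1 and Arxes2 were the only ones whose 250 bases upstream of the start were shared exactly. The windows lie at chrX:136033117-136033366 for Arxes1 and at chrX:135993570-135993819 for Arxes2, both on the plus strand of assembly GRCm38.p6. The sequence is RefSeq's, 5′ to 3′, in lower case throughout because no base differs.
Arxes1 and Arxes2: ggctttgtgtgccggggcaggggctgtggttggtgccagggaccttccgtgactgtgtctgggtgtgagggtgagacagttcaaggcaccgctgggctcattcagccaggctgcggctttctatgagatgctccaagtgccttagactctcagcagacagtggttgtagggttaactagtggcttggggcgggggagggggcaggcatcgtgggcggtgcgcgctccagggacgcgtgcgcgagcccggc
The window lies upstream of the start, and the sequences of the transcripts themselves were not compared here. The split of reads between Arxes1 and Arxes2 is therefore uncertain.

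Library totals ran from 434298 to 683381 reads. The smallest count above 0 in the table was 2, so a 0 can hide single reads, and with no molecular identifiers all limits cover counting error only. Markers of each labelled cell type were present in its culture, and astrocyte markers were present in all of them. Neuron markers summed to 3234 reads in each 1000000 (RPM) in neuron sEVs and 6408 in neuron cells, against 32.9 and 4.20 in microglia sEVs and cells. Microglia markers summed to 3486 RPM in microglia sEVs and 6873 in microglia cells, with Itgam at 0 in the sEVs and Cx3cr1 at 0 in the cells, and to at most 10.9 RPM in the other groups. Astrocyte markers summed to 18132 RPM in astrocyte sEVs and 62388 in astrocyte cells, reached 5492 and 20770 RPM in microglia sEVs and cells, above the microglia markers there, and 3803 and 7976 RPM in neuron sEVs and cells. Aqp4, Slc1a2, S100b and Agt were at 0 in both microglia groups, while the other 6 of the 10 (Gfap, Slc1a3, Gja1, Aldh1l1, Aldoc and Apoe) were seen in both. The astrocyte list includes Apoe, which was also high in microglia cells, as given below on a different scale, so the sum there does not measure astrocyte content. Levels of the other astrocyte markers seen there are not given here, and astrocytes in the microglia cultures are not excluded. Oligodendrocyte markers reached 2521 RPM in astrocyte sEVs and 6319 in astrocyte cells. Replicates correlated more tightly in cells (r 0.860 to 0.907 over isoforms) than in sEVs (0.689 to 0.812).

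Reads were concentrated in few of the 1850 transcripts. Malat1 alone had 55847 reads and Gm20186, a predicted gene, had 25457. The 10 transcripts with the most reads held 56.0% of all the mono-exon reads, and the median transcript had 6. Of the 1850, 791 were seen in 1 library only and 23 in all 18. In sEVs 1024 were seen, in cells 1427, and in both 601. By RefSeq type, 312 were protein-coding genes with no other isoform in the table, 671 were protein-coding genes that also had other isoforms there, 171 were pseudogenes and 144 were non-coding RNAs. The remaining 552 had no match in the RefSeq table.

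The share of a library's reads that fell on mono-exon transcripts was 2.39% ± 0.588 in astrocyte sEVs, 0.731% ± 0.135 in microglia sEVs and 3.37% ± 0.652 in neuron sEVs (mean ± SD, n = 3). It was 3.11% ± 0.445 in astrocyte cells, 1.01% ± 0.144 in microglia cells and 3.42% ± 0.757 in neuron cells. Both microglia groups lay below every astrocyte and neuron library, while sEVs and cells of each type overlapped. The mean of the 3 sEV minus cell differences was -0.354 percentage points (exact two-sided permutation test within cell types, p = 0.1545). Within a cell type 3 libraries against 3 cannot give a p below 0.1, and the 3 values were 0.2, 0.2 and 0.8. Mitochondrially encoded reads were 0.333%, 0.116% and 0.335% of reads in astrocyte, microglia and neuron sEVs, against 6.08%, 0.997% and 6.15% in their cells. As a share of nuclear-encoded reads alone the mono-exon difference was -0.273 points in neurons and -0.492 in the mean (exact permutation, p = 0.6 and 0.066). The sign turned when Malat1 was left out: the share then was 2.16% in astrocyte sEVs against 1.53% in their cells, 0.727% against 0.713% in microglia, and 3.34% against 2.29% in neurons. The mean difference then was 0.561 points (p = 0.00525, exact permutation). Most of that mean rise lay in 1 predicted gene, Gm20186. It had 4231, 3211 and 3747 reads in astrocyte sEVs, of library totals of 615216, 487966 and 594254, and 0 in astrocyte cells. In astrocytes Gm20186 alone made up more than the whole rise. In neuron sEVs it had 5147, 4350 and 4428 reads, against 0, 3 and 8 in neuron cells. Leaving out Gm20186 alone was not run. Without the 10 transcripts with the most reads, Gm20186 among them, the mean difference was 0.316 points (p = 0.001, exact permutation). These 10 also include Gm10925, Gm28437 and Gm28661. Their highest counts were 6617, 4148 and 1991 reads in a cell library, and 510, 167 and 35 in an sEV library. Leaving them out lowers the cell shares, so this value does not show what remains without Gm20186 alone. For protein-coding members alone, an alternative chosen after seeing the data, the difference was -0.0191 points (p = 0.624, exact permutation). In bulk RNA, fewer vesicles or cells of a type and less RNA in each cannot be told apart.

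**Figure D1:**
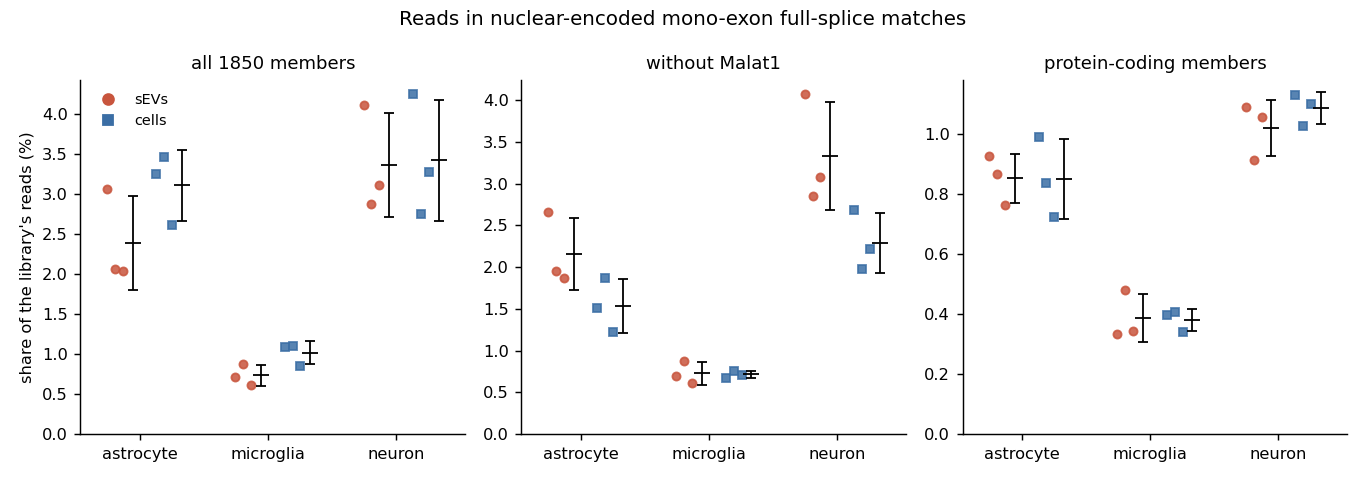
Percent of each library's reads on mono-exon transcripts: all of them, all but Malat1, and protein-coding ones only. Points are libraries, sEVs left of cells, and black marks are means ± SD (n = 3). Without Malat1 astrocyte and neuron sEVs average 2.16% and 3.34%, against 1.53% and 2.29% in their cells, while the protein-coding panel shows 0.853% and 1.02% against 0.850% and 1.09%.

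Which kinds of mono-exon transcript were present differed more than their sum. Non-coding RNAs made up 12.9% of mono-exon reads in astrocyte sEVs and 51.8% in astrocyte cells, 6.39% and 30.1% in microglia sEVs and cells, and 4.80% and 34.8% in neuron sEVs and cells. Transcripts with no RefSeq match, most of them predicted genes, made up 41.8% in astrocyte sEVs and 9.94% in their cells, and 38.9% in neuron sEVs and 18% in their cells. In microglia they made up 7.81% of the sEV reads and 9.93% of the cell reads. Protein-coding genes with no other isoform ranged over the 6 groups from 15.7% of mono-exon reads in astrocyte cells to 37.4% in microglia sEVs. These shares are descriptions and were not tested.

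**Figure D2:**
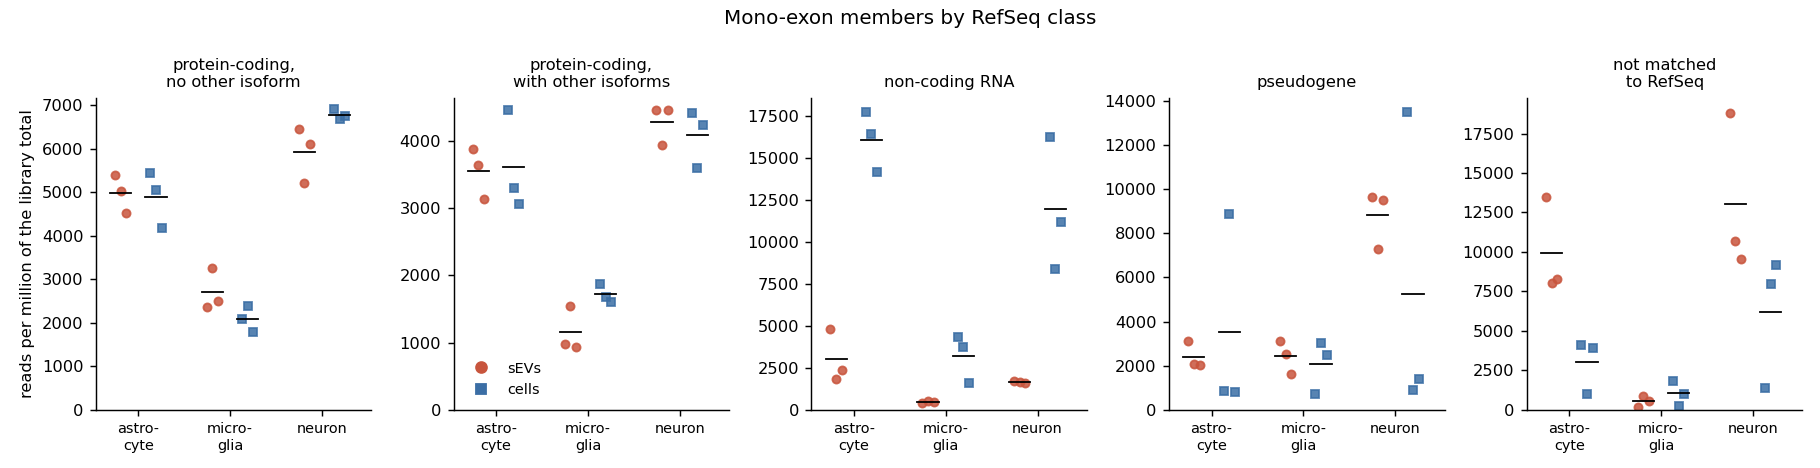
RPM of the library total in each of 5 classes of mono-exon transcripts. Points are libraries, sEVs left of cells, and black lines are group means. Non-coding RNA runs from 388 to 4816 RPM in the 9 sEV libraries and from 1576 to 17694 in the 9 cell libraries, and pseudogenes reach 13503 RPM in neuron cells replicate 1 alone among neuron cells.

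After the filter on low counts, 261 of the 1850 transcripts could be tested, 192 with gene names and 69 predicted genes or pseudogenes. They were fitted among 9370 isoforms with edgeR's quasi-likelihood test and adjusted over all 9370 by Benjamini-Hochberg, with calls at an adjusted p under 0.05. A transcript that is high in only 1 group passes the filter through that group, so the counts that follow describe the tested transcripts and support nothing about all 1850. Unless other isoforms are named, levels and changes given below for a gene are those of its mono-exon transcript alone. Jun, Junb, Pou3f3, Rbm15b, Amer2, Zfp369, Nap1l5, Mageh1 and Dolk, among others, also had other isoforms, whose levels are not given here.

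The comparison of vesicles with the cells that shed them asks which mono-exon transcripts were relatively more or less frequent in the vesicle libraries. In astrocytes 56 of the 261 differed, 34 higher and 22 lower in sEVs. Over all 9370 isoforms 15.5% differed, 3.22% higher and 12.3% lower. In neurons 82 differed, 51 higher and 31 lower, against 27.2% of all isoforms (6.26% higher and 20.9% lower). In microglia 23 differed, 4 higher and 19 lower, close to the 9.36% of all isoforms (1.36% higher and 8% lower). For the mean of the 3 differences 84 transcripts were called, 52 higher and 32 lower, against 28% of all isoforms (6.92% higher and 21% lower). So 13% and 19.5% of tested mono-exon transcripts were higher in astrocyte and neuron sEVs, and 1.53% in microglia sEVs. The median log2 difference of the tested transcripts, with groups at 0 reads set to the floor of 3 reads per library, was 0.45 in astrocytes, 0 in microglia and 0.71 in neurons. Over all isoforms it was 0, 0 and -0.33. Libraries of sEVs and cells did not overlap for 49% of the 261 in astrocytes, 15.7% in microglia and 60.9% in neurons. That share was not computed over all isoforms. Many genes below were named by a rule that asks for no overlap, so the separation of their libraries is no further support.

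Astrocytes and neurons shared most of these calls. No library was compared in both, but both comparisons came from 1 fit with a shared estimate of spread and a shared filter. Both also set the sEV pool against the cell pool. The overlap over all isoforms was not computed. Of the higher calls 29 were common to both, 85.3% of the 34 in astrocytes and 56.9% of the 51 in neurons. Of the lower calls 18 were common, 81.8% of the 22 and 58.1% of the 31. Malat1, Jun, Junb, Trim35, Nagk and Pid1 were lower in the sEVs of all 3 cell types, and the predicted genes Gm20186 and Gm43305 were higher in all 3. The counts depended on single libraries. The astrocyte count was 32, 30 or 29 without cell replicate 1, 2 or 3, and 34 or 35 without sEV replicate 1 or 3. The neuron count was 52, 50 or 49 without cell replicate 1, 2 or 3, and 54 or 52 without sEV replicate 1 or 3. It was 68, 66 or 68 without astrocyte cells replicate 1, 2 or 3. The microglia count was 8 to 15 when any 1 library other than an astrocyte sEV library was left out. Without the filter on low counts, which puts far more isoforms in the adjustment, the counts were 36 in astrocytes, 14 in microglia and 46 in neurons, and among the calls lost were those of Norad, Nap1l5, Id2 and Rraga in neurons and of Jun and Mageh1 in astrocytes. Library totals without TMM scaling gave 11 higher and 14 lower in microglia.

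**Figure D3:**
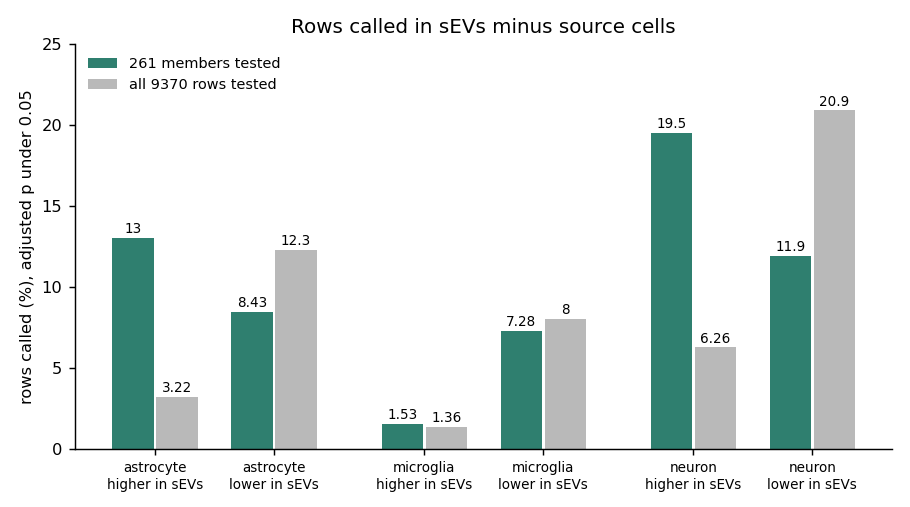
Percent of tested isoforms called higher or lower in sEVs than in cells, for the 261 mono-exon transcripts and for all 9370 isoforms, in each cell type. Mono-exon transcripts were called higher in 13% (astrocytes), 1.53% (microglia) and 19.5% (neurons), against 3.22%, 1.36% and 6.26% of all isoforms. They were called lower in 8.43%, 7.28% and 11.9%, against 12.3%, 8% and 20.9%.

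Among the non-coding RNAs, Malat1 and Norad moved in opposite directions. Malat1, a long non-coding RNA of nuclear speckles, had 3453, 1158 and 1431 counts in each 1000000 of the TMM-scaled total (CPM) in the 3 astrocyte sEV libraries, against 16929, 14634 and 15910 in astrocyte cells. Microglia sEVs had 63.2, 40.5 and 27.4 CPM and microglia cells 6609, 6120 and 2440. Neuron sEVs had 392, 225 and 489 CPM and neuron cells 17576, 8081 and 11705. Every sEV library lay below every library of its source cells. The log2 differences were -2.97 ± 0.52 (SE; adjusted p = 0.00173) in astrocytes, -6.85 ± 0.63 (3.4e-05) in microglia and -5.08 ± 0.57 (2.95e-05) in neurons. These calls held when each library was left out in turn.

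Norad, a cytoplasmic non-coding RNA that binds Pumilio proteins, had 308, 515 and 313 CPM in astrocyte sEVs, against 64.8, 70.8 and 80.5 in astrocyte cells. Neuron sEVs had 956, 977 and 836 CPM and neuron cells 342, 339 and 321. In both types all sEV libraries lay above all cell libraries. The log2 difference was 2.39 ± 0.37 in astrocytes (adjusted p = 0.000752) and 1.47 ± 0.36 in neurons (adjusted p = 0.00873, and 0.0511 without neuron cells replicate 3). Microglia sEVs had 42.8, 151 and 130 CPM, against 62.8, 49.9 and 70.4 in microglia cells, and the 2 groups overlapped. Neat1, the scaffold of paraspeckles and the only other tested member of this list of 8, averaged 14.9 CPM in microglia sEVs against 141 in microglia cells, which did not pass the test (adjusted p = 0.207). The list summed to 2675, 150 and 1128 RPM in astrocyte, microglia and neuron sEVs, against 15872, 3140 and 11662 RPM in their cells.

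**Figure D4:**
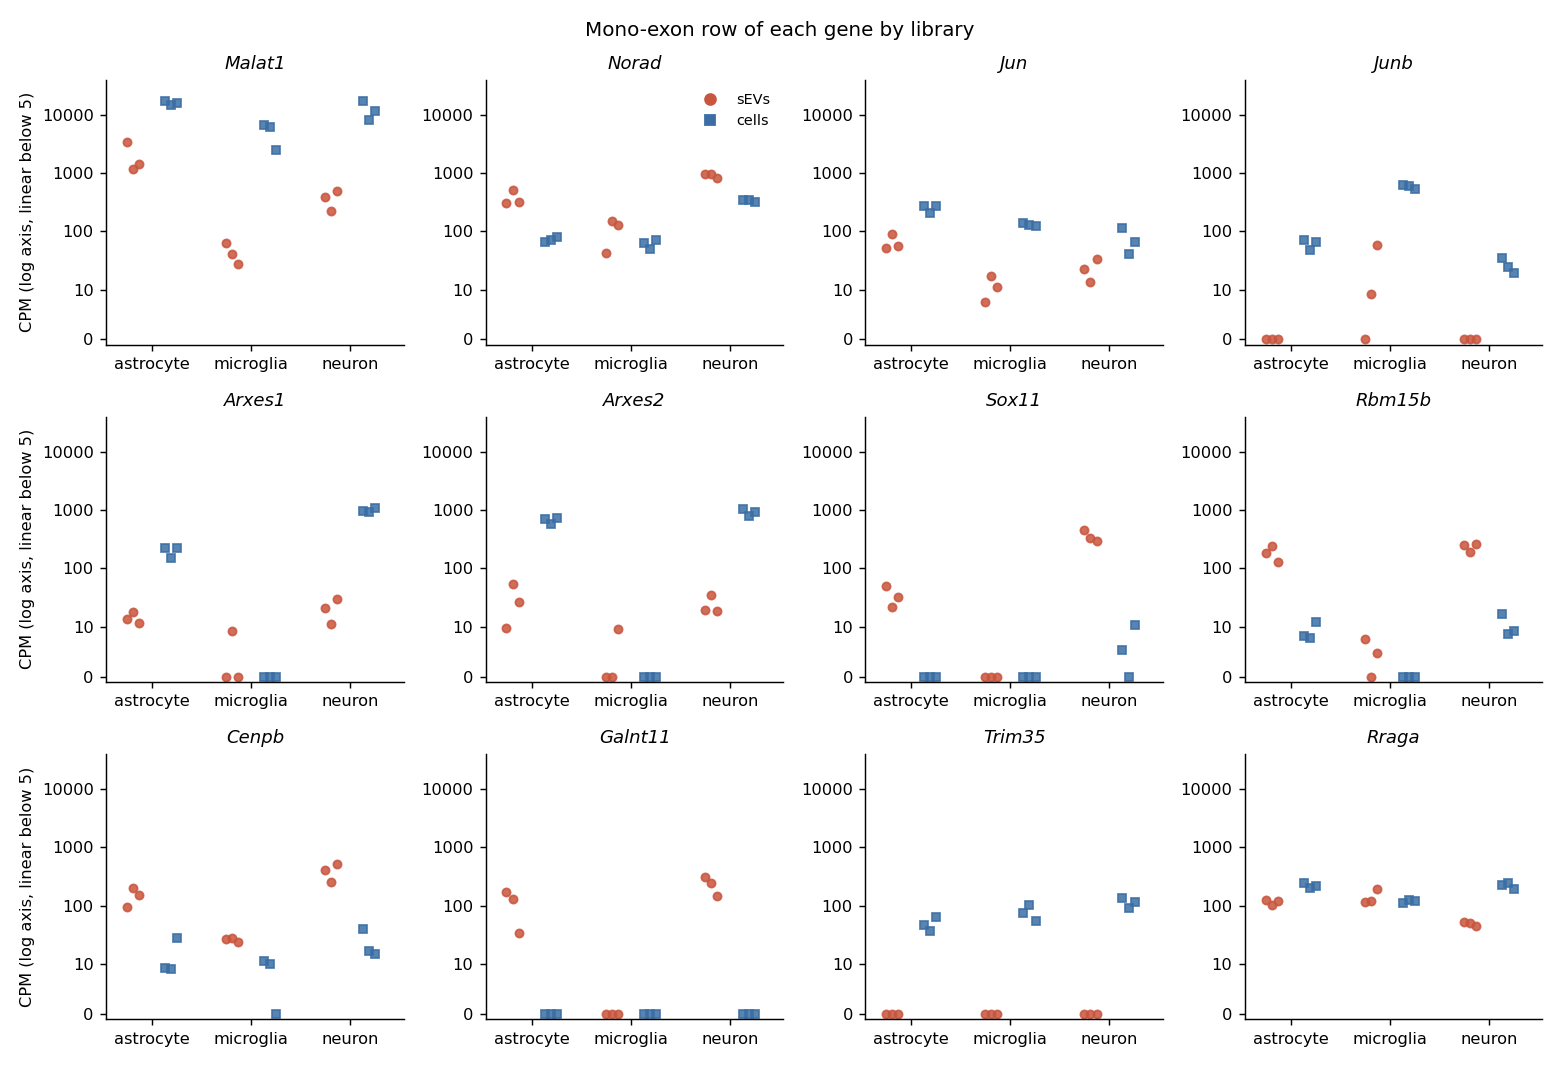
Level of the mono-exon transcript of 12 genes in each library, in CPM of TMM-scaled totals on an axis that is linear below 5 and logarithmic above. Circles are sEVs, left of squares for cells. Malat1, Jun and Trim35 lie below the cells in the sEVs of all 3 types, Norad, Rbm15b and Cenpb lie above in astrocytes and neurons, and Galnt11 is seen in astrocyte and neuron sEVs only.

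Immediate early transcription factors were split by gene. The list of AP-1, CEBP and immediate early genes held 12 members, of which 8 were tested. Jun and Junb, subunits of AP-1, were lower in the sEVs of all 3 types, and Zfp36, which destabilises AU-rich mRNAs, was lower in microglia sEVs (adjusted p = 0.0383, lost in 14 of 18 fits that left out 1 library, 0.0602 to 0.148). Its other isoforms averaged 351 CPM in microglia sEVs against 1566 in microglia cells. Jund was higher in microglia sEVs. So 0 rose and 2 fell in astrocytes, 1 rose and 3 fell in microglia, and 0 rose and 2 fell in neurons. Of all isoforms, 3.22% rose and 12.3% fell in astrocytes, 1.36% and 8% in microglia, and 6.26% and 20.9% in neurons. The counts of this list were not tested against those shares. Jun had 50.9, 91.0 and 56.6 CPM in astrocyte sEVs against 268, 204 and 274 in cells, 6.12, 17.1 and 11 in microglia sEVs against 137, 130 and 123 in cells, and 22.8, 13.2 and 33.7 in neuron sEVs against 114, 41.0 and 66.2 in cells. No sEV library of a type reached any library of its cells. The log2 differences were -1.91, -3.48 and -1.65 (adjusted p 0.00972, 0.000861 and 0.0164). The astrocyte call was lost without sEV replicate 1 (0.0718) or 3 (0.065), and the neuron call without any 1 microglia cell library, neuron cells replicate 1, astrocyte sEV replicate 3 or neuron sEV replicate 1 or 2 (0.05 to 0.135). The microglia call held in all of them.

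Junb was the sharper case in level. Astrocyte and neuron sEVs had 0 reads in all libraries, against 71.6, 48.3 and 66.8 CPM in astrocyte cells and 35.2, 24.2 and 19.2 CPM in neuron cells. With 3 reads per library as the floor this is at least 12.3-fold lower in astrocyte sEVs (adjusted p = 0.00563) and at least 4.49-fold lower in neuron sEVs (0.0125, and 0.0521 or 0.0541 without neuron sEV replicate 1 or 3). Microglia sEVs had 0, 8.53 and 58.6 CPM and microglia cells 613, 589 and 532 (log2 -4.66, adjusted p = 0.0161). That call was lost without any 1 of the 3 cell libraries (0.065 to 0.0713) or without sEV replicate 2 (0.0847). Jund ran the other way, with 22.4, 64.0 and 31.1 CPM in microglia sEVs against 0 in microglia cells, at least 4.07-fold higher (adjusted p = 0.027). It was lost without any 1 microglia library of either kind or neuron cells replicate 2 (0.0506 to 0.122), while its mean difference over the cell types, log2 4.27, had an adjusted p of 0.00218.

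Developmental transcription factors included some of the transcripts that were frequent in neuron sEVs and nearly absent from neuron cells. Of 20 members of this list 12 were tested. In neuron sEVs Sox11, Sox12, Sox1 and Pou3f3 rose and Id2 fell. In astrocyte sEVs Sox11 rose and Id2 and Olig1 fell. In microglia no member passed the test. Of all isoforms, 6.26% rose and 20.9% fell in neuron sEVs, 3.22% and 12.3% in astrocyte sEVs, and 1.36% and 8% in microglia sEVs. Sox11, a SoxC factor of newly formed neurons, had 466, 329 and 292 CPM in neuron sEVs against 4.14, 0 and 10.7 in neuron cells (log2 6.16 ± 0.93, adjusted p = 0.00206). Astrocyte sEVs had 49.5, 22.2 and 31.9 CPM against 0 in all astrocyte cells, at least 6.87-fold higher (adjusted p = 0.00538). Both Sox11 calls held with each library left out. The sEV libraries of both types lay far above their cells, and microglia had 0 reads in all 6 libraries.

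Pou3f3, a POU-domain factor of the developing cortex, had 125, 148 and 33.7 CPM in neuron sEVs against 4.14, 0 and 0 in neuron cells (log2 5.99, adjusted p = 0.00628), and held likewise. Sox12, another SoxC factor, had 112, 106 and 78.7 CPM against 4.14, 0 and 0 (log2 5.95, adjusted p = 0.0134, and 0.0678 or 0.0685 without neuron cells replicate 2 or 3). Sox1 was called at the edge, with the call lost in 15 fits with 1 library left out (0.0528 to 0.164). Olig1, a factor of the oligodendrocyte lineage, had 103, 193 and 181 CPM in astrocyte sEVs against 591, 419 and 461 in astrocyte cells. Its call (log2 -1.62, adjusted p = 0.0307) was also lost in 15 such fits (0.0543 to 0.169). Oligodendrocyte markers, among which Olig1 is counted, were also lower in astrocyte sEVs, as given above, and their part in it was not tested. In neurons these markers averaged 380 RPM in sEVs against 1126 in cells. Olig1 had 230, 265 and 304 CPM in neuron sEVs against 335, 177 and 280 in neuron cells. Summed, the developmental transcription factors stood at 521 RPM in astrocyte sEVs against 696 in astrocyte cells, and at 941 RPM in neuron sEVs against 347 in neuron cells.

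The mono-exon transcripts of Rbm15b, Cenpb, Amer2 and Igip were among the other protein-coding ones that rose in both astrocyte and neuron sEVs. Rbm15b and Amer2 also had other isoforms, so these values are not the level of the whole gene. Rbm15b, an RNA-binding subunit of the complex that writes N6-methyladenosine, had 182, 244 and 128 CPM in astrocyte sEVs against 6.82, 6.44 and 12 in astrocyte cells. Neuron sEVs had 249, 194 and 259 CPM and neuron cells 16.6, 7.46 and 8.55. All 6 sEV libraries lay above all 6 cell libraries (log2 4.42 ± 0.63, adjusted p = 0.000628, and 4.40 ± 0.63, adjusted p = 0.000397). Microglia had at most 6.12 CPM in sEVs and 0 in cells.

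Cenpb, a centromere-binding protein related to transposases, had 94.9, 199.7 and 152 CPM in astrocyte sEVs against 8.52, 8.05 and 27.4 in astrocyte cells. In neurons it had 411, 258 and 515 CPM in sEVs against 39.3, 16.8 and 15 in cells. Microglia sEVs had 26.5, 27.7 and 23.8 CPM and microglia cells 11.1, 9.98 and 0. The groups did not overlap in any of the 3 types, and the calls in astrocytes (log2 3.32, adjusted p = 0.00437) and neurons (4.05, 0.00087) held with each library left out. Rbm15b, Cenpb and Norad also rose in the mean of the 3 cell types, with log2 differences of 4.22, 3.10 and 1.56 (adjusted p = 3.56e-05, 4.47e-05 and 6.08e-05).

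Amer2, a regulator of Wnt signalling that binds the APC protein, had 277, 342 and 268 CPM in astrocyte sEVs against 3.41, 3.22 and 5.14 in astrocyte cells (log2 6.15, adjusted p = 0.00158). In neurons it had 130, 552 and 392 CPM in sEVs against 0, 3.73 and 15 in cells (log2 5.81, adjusted p = 0.00117). Igip, which encodes a small secreted protein that induces IgA, stood at 267, 288 and 113 CPM in astrocyte sEVs against 5.11, 3.22 and 0 in cells (log2 6.20, adjusted p = 0.00125). In neuron sEVs its log2 difference was 3.52 (adjusted p = 0.00916, and 0.0505 or 0.0586 without neuron cells replicate 1 or 2). All sEV libraries of these genes lay above the cells, which the naming rule required except for Igip in neurons.

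Further named rises were Zfp369, a zinc finger gene, at log2 5.16 in astrocytes (adjusted p = 0.00969) and 3.29 in neurons (0.0294, lost without any 1 neuron library of either kind or astrocyte sEV replicate 2, 0.0528 to 0.134). Rtl6, domesticated from a retrotransposon Gag gene, rose by 5.37 on the log2 scale in neuron sEVs (adjusted p = 0.00185). Its astrocyte value of 3.34 (0.0203) was lost without any 1 of the astrocyte cell libraries or sEV replicate 2 (0.0751 to 0.11). Klhdc7a, a kelch-domain gene, was at least 10.9-fold higher in neuron sEVs (adjusted p = 0.00333). In astrocyte sEVs its log2 difference of 3.84 (0.0352) was lost in 15 such fits. Hs6st1, a heparan sulfate sulfotransferase, was at least 7.93-fold higher in neuron sEVs (0.0183, and 0.0694 to 0.0717 without any 1 neuron cell library). Its other isoforms ran the opposite way, with 0 reads in neuron sEVs and 65.8 ± 17.1 CPM in neuron cells. Hnrnpa0, an mRNA-binding protein gene, and Fbxl14, an F-box ubiquitin ligase gene, rose in neuron sEVs by 5.16 and 4.66 (adjusted p = 0.031 and 0.0324), and these calls were lost in 7 and 11 such fits, for Hnrnpa0 without astrocyte or neuron cells replicate 2 or 3 or any 1 neuron sEV library (0.0581 to 0.136).

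Arxes1 and Arxes2, whose shared upstream sequence is given above, fell in sEVs. Arxes1 had 13.8, 17.7 and 11.6 CPM in astrocyte sEVs against 225, 153 and 226 in astrocyte cells. Neuron sEVs had 21.1, 11 and 30 CPM and neuron cells 959, 939.9 and 1090. Arxes2 had 9.63, 53.2 and 26.1 CPM in astrocyte sEVs against 716, 575 and 731 in cells, and 19.3, 35.3 and 18.7 CPM in neuron sEVs against 1058, 785 and 925 in cells. Each sEV library lay far below every library of its cells. The log2 differences were -3.80 ± 0.65 and -4.53 ± 0.75 in astrocytes (adjusted p = 0.00221 and 0.00173) and -5.56 ± 0.69 and -5.23 ± 0.77 in neurons (0.000142 and 0.000498). These 4 calls held with each library left out, but the split of reads between Arxes1 and Arxes2 is uncertain, as given above. Microglia cells had 0 reads of either, and microglia sEVs had 8.53 CPM of Arxes1 and 9.15 CPM of Arxes2 in 1 library each.

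Among other retrogenes, imprinted genes and relatives the directions were mixed. The list of imprinted and other retrogenes had 26 members and 16 tested. In astrocyte sEVs Rtl6, Peg12 and Cdk5r1, the activator of Cdk5, rose and 0 fell. In neuron sEVs the same 3 rose, and Nap1l5 and Ndn, both imprinted, fell. In microglia sEVs 0 rose, and Ndn fell at very low counts, with the call lost in 16 fits with 1 library left out. Of all isoforms, 3.22% rose and 12.3% fell in astrocyte sEVs, 6.26% and 20.9% in neuron sEVs, and 1.36% and 8% in microglia sEVs. Nap1l5, a nucleosome assembly protein gene, had 59.7, 26.5 and 63.7 CPM in neuron sEVs against 375, 384 and 393 in neuron cells (log2 -2.93, adjusted p = 0.00543). Mageh1, of the MAGE family, had 14.1, 19.9 and 7.5 CPM in neuron sEVs against 236, 235 and 265 in cells (log2 -4.14, adjusted p = 0.000146). In astrocytes it had 12.4, 20.0 and 11.6 CPM in sEVs against 106, 116 and 120 in cells (log2 -2.95, adjusted p = 0.0016). The 3 neuron cell libraries were closely grouped for both genes and well above the sEVs.

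Of 27 clustered protocadherins, which give neurons distinct surface identities, 3 were tested. Pcdhb9 had 0 reads in neuron sEVs against 68.3, 106 and 72.7 CPM in neuron cells, at least 14.1-fold lower (adjusted p = 0.0058), and held with each library left out. Pcdhb20 (log2 -4.80, adjusted p = 0.0361) in neurons and Pcdhb17 in astrocytes were lost in 15 and 17 such fits. Slitrk1, a synaptic adhesion gene, fell in neuron sEVs (log2 -3.55, adjusted p = 0.0359, lost in 16 such fits). Hspa2, the only tested of 2 heat shock 70 genes, fell in astrocyte and neuron sEVs (log2 -4.96 and -4.91, adjusted p = 0.0309 and 0.027), with each call lost in 12 such fits. Of 3 potassium channel genes Kcnf1 was tested, of 4 type I interferon genes Ifnb1, and of 19 G protein-coupled receptor genes 4. No potassium channel or interferon gene passed in any cell type, and of the receptors Gpr85 rose in neuron sEVs, a call lost in 15 such fits (0.0648 to 0.137). The other isoforms of Gpr85 averaged 57.1 CPM in neuron sEVs against 327 in neuron cells. Of all isoforms, 15.5%, 9.36% and 27.2% differed in astrocytes, microglia and neurons.

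Dolk and Mgat2 were further genes that fell. Dolk, the dolichol kinase, had 0 reads in microglia sEVs against 29.6, 29.9 and 36.5 CPM in microglia cells, at least 5.33-fold lower (adjusted p = 0.00146). In neurons it had 19.3, 30.9 and 20.6 CPM in sEVs against 149, 179 and 126 in cells (log2 -2.67, adjusted p = 0.00799, and 0.0557 or 0.0575 without neuron sEV replicate 1 or 3). Mgat2, which builds complex N-glycans, averaged 8.44 CPM in microglia sEVs against 119 in microglia cells (log2 -3.77, adjusted p = 0.038, lost in 15 fits with 1 library left out).

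Rraga, a Rag GTPase that relays amino acid supply to mTORC1, depended on the cell type. It had 122, 104 and 120 CPM in astrocyte sEVs against 247, 203 and 218 in astrocyte cells, and 52.7, 50.7 and 45.0 CPM in neuron sEVs against 226, 244 and 194 in neuron cells. Microglia sEVs had 114, 122 and 190 CPM and microglia cells 111, 126 and 120. Astrocyte and neuron sEVs lay wholly below their cells, while the microglia groups overlapped. The log2 difference was -2.16 ± 0.26 in neurons (adjusted p = 5.2e-05) and -0.94 ± 0.25 in astrocytes (0.0183, lost in 13 fits with 1 library left out, 0.0551 to 0.112). The interaction of cell type and fraction, the test of that dependence, gave an adjusted p of 0.00845. It called 4 of the 261 transcripts (Rraga, Malat1, Rpl10-ps3 and Arxes1), against 1.22% of all isoforms, and 0 to 5 when each library was left out.

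Some mono-exon transcripts belong to genes that have other isoforms in the table. Of 70 such protein-coding transcripts tested, 6 were higher and 14 lower in astrocyte sEVs, 1 and 12 in microglia sEVs, and 10 and 17 in neuron sEVs. Over all isoforms 3.22% were higher and 12.3% lower in astrocyte sEVs, 1.36% and 8% in microglia sEVs, and 6.26% and 20.9% in neuron sEVs. With groups at 0 reads set to the floor, the median log2 differences of the 70 were 0.16, 0 and 0.08. The genes described next are those with the largest falls and 1 with a large rise, so they are not typical of the 70. Trim35, a RING-domain ubiquitin ligase, had 0 mono-exon reads in all 9 sEV libraries. Astrocyte cells had 46.0, 37.0 and 63.4 CPM, microglia cells 73.9, 103 and 54.7, and neuron cells 135, 89.5 and 115. This was at least 9.67-fold lower in astrocyte sEVs, at least 12.9-fold in microglia sEVs and at least 19.4-fold in neuron sEVs (adjusted p = 0.000441, 0.000861 and 0.000148), and these calls held with each library left out. Its other isoforms together stood at 417 ± 189, 193 ± 134 and 552 ± 138 CPM in astrocyte, microglia and neuron sEVs, against 219 ± 50.5, 273 ± 42 and 289 ± 29.1 in their cells.

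In astrocytes Mt1, Prdx6, Id2, Serpine2 and Rnps1 also had 0 mono-exon reads in sEVs. Mt1, a metallothionein, had 170, 106 and 200.4 CPM in astrocyte cells, so sEVs were at least 31.5-fold lower (adjusted p = 0.00274), while its other isoforms had 267 ± 68.1 CPM in sEVs and 112 ± 22.7 in cells. Prdx6, a peroxiredoxin, had 102, 75.7 and 180 CPM in cells and was at least 23.6-fold lower in sEVs (0.0143). That call was lost without astrocyte cells replicate 3 (0.0628) or sEV replicate 1 (0.0546) or 3 (0.0513). Its other isoforms had 4776 ± 889 CPM in sEVs and 3950 ± 1555 in cells.

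Id2, an inhibitor of helix-loop-helix factors, had 101, 93.4 and 90.8 CPM in astrocyte cells and was at least 18.8-fold lower in sEVs (adjusted p = 0.00501). Its other isoforms had 230 ± 71.6 CPM in sEVs and 295 ± 70.5 in cells. Rnps1, which marks spliced mRNA at exon junctions, was at least 7.82-fold lower in astrocyte sEVs (0.0109) and at least 9.07-fold lower in neuron sEVs (0.00675). Serpine2, a protease inhibitor, was at least 8.22-fold lower (0.0068, and 0.0581 or 0.0587 without astrocyte cells replicate 1 or 3). Unlike in Mt1, Prdx6, Id2 and Rnps1, its other isoforms were also far lower in astrocyte sEVs, with 209 ± 45.6 CPM against 8181 ± 2557 in cells. Of the 14 translation and oxidative machinery genes 2 were tested. The ribosomal protein gene Rpl6 fell in neuron sEVs, at least 5.83-fold (0.00705), and in astrocyte sEVs, where the call was lost in 10 fits with 1 library left out.

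In microglia Cd69, an activation marker of leukocytes, had 0 mono-exon reads in sEVs against 174, 163 and 232 CPM in cells. This was at least 31.6-fold lower (adjusted p = 0.013, 0.303 with DESeq2, and 0.0725 to 0.0929 without any 1 of the microglia cell libraries). Its other isoforms had 8503 ± 1967 CPM in sEVs and 24639.8 ± 3032 in cells. Aopep, an aminopeptidase, was at least 13.2-fold lower in microglia sEVs (0.0128, and 0.0722, 0.0559 or 0.0511 without microglia cells replicate 2 or 3 or sEV replicate 2).

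Galnt11, an enzyme that starts mucin-type O-glycans, showed the reverse. Its mono-exon form had 169, 131 and 33.4 CPM in astrocyte sEVs and 309, 247 and 146 CPM in neuron sEVs, and 0 reads in all 12 other libraries. It was at least 22.1-fold higher in astrocyte sEVs (adjusted p = 0.00361) and at least 38.6-fold higher in neuron sEVs (0.00185), and held with each library left out. Its other isoforms were present in all groups, at 57.5 ± 34.3 CPM in astrocyte sEVs against 101 ± 26.0 in their cells, and 89.5 ± 21.5 in neuron sEVs against 128 ± 16.8 in their cells.

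**Figure D5:**
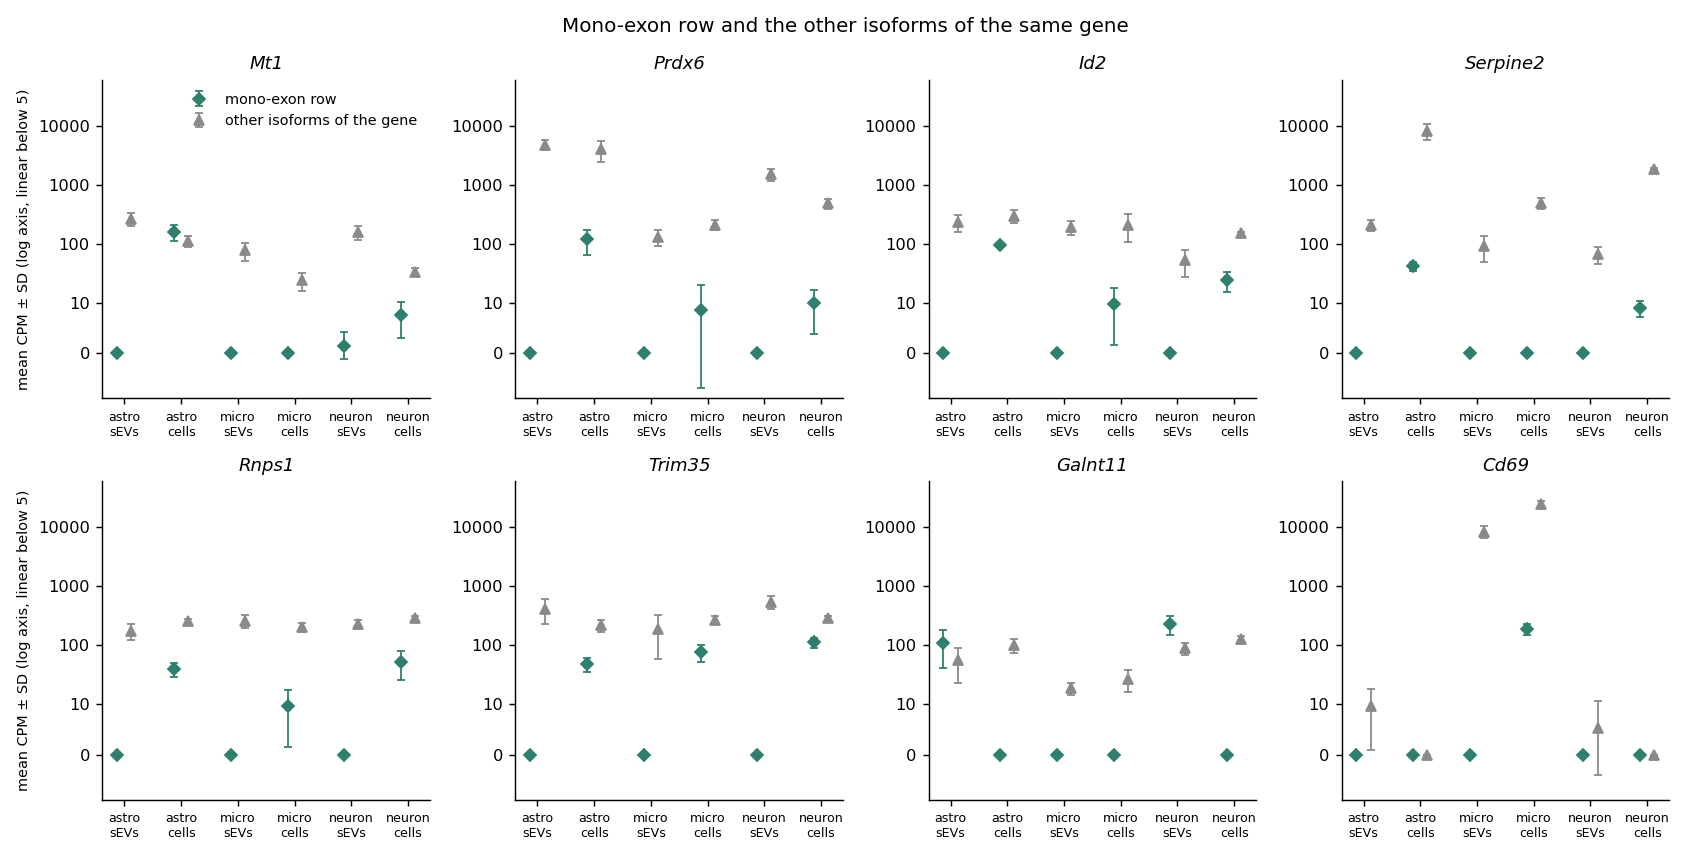
Mono-exon transcript and all other isoforms of 8 genes, as mean CPM ± SD (n = 3) in the sEVs and cells of each cell type, on an axis that is linear below 5 and logarithmic above. Trim35 has 0 mono-exon reads in the sEVs of all 3 types while its other isoforms average 193 to 552 CPM there. The mono-exon form of Galnt11 appears in astrocyte and neuron sEVs only.

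Over the 664 genes with 20 or more reads that held both forms, the mono-exon form took 16.8% ± 1.43 of the reads in astrocyte sEVs and 18.7% ± 2.53 in astrocyte cells. It took 3.53% ± 1.01 in microglia sEVs and 4.15% ± 1.30 in microglia cells, and 19.3% ± 3.05 in neuron sEVs and 26.4% ± 5.55 in neuron cells. The mean difference was -3.22 percentage points (exact permutation within cell types, p = 0.0335). It was lost without astrocyte cells replicate 1 or 2 (exact permutation p = 0.06625 and 0.054), neuron cells replicate 1 (0.06625), astrocyte sEV replicate 1 (0.061), or neuron sEV replicate 1 or 2 (0.09175 and 0.07625). With each gene counted once it was -0.226 points (exact permutation p = 0.785). Thinned to 434298 reads, libraries held 347, 155 and 424 of the 1850 transcripts with 2 or more reads in astrocyte, microglia and neuron sEVs, against 371, 176 and 479 in their cells. The mean difference was -33.4 (exact permutation p = 0.17875, and -53.9 with p = 0.0145 without neuron cells replicate 2). Its sign depended on the count asked for: at 5 or more reads it was 42.1 (exact permutation p = 0.00125), and without thinning it was -64.8 (exact permutation p = 0.03825).

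Processed pseudogenes, intron-less copies of mRNAs, ran higher in sEVs. Their reads can be hard to tell from those of the spliced parent mRNA, so their levels are uncertain. Of 58 members named as such (-ps) 16 were tested. None fell. In astrocyte sEVs 1 rose, in microglia sEVs 0, in neuron sEVs 5, and in the mean of the 3 types 9. Summed, they had 1195 ± 196 RPM in astrocyte sEVs against 354 ± 210 in cells, 1432 ± 440 RPM in microglia sEVs against 479 ± 140 in cells, and 5549 ± 899 RPM in neuron sEVs against 578 ± 254 in cells. All sEV libraries of a type lay above its cells. Rpl10-ps3, a copy of a ribosomal protein mRNA, had 689, 543 and 774 CPM in neuron sEVs against 186, 116 and 120 in neuron cells (log2 2.25 ± 0.28, adjusted p = 7.66e-05). In astrocytes it had 173, 166 and 175 CPM in sEVs against 121, 132 and 82.2 in cells, which did not pass (0.151). Rpl15-ps3 had 1743, 1531 and 1944 CPM in neuron sEVs, against 333, 0 and 282 in neuron cells. Rpl21-ps15 had 1068, 730.2 and 1136 CPM in neuron sEVs, against 151, 0 and 152 in neuron cells. In both, neuron cells replicate 2 stood at 0 while the other 2 cell libraries did not, so these counts were unsteady.

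The predicted genes with the most reads split into steady and unsteady ones. Gm20186 had 5821, 7124 and 5434 CPM in astrocyte sEVs and 0 reads in astrocyte cells, at least 1219-fold higher (adjusted p = 0.000286). Neuron sEVs had 9043, 9596 and 8299 CPM and neuron cells 0, 5.59 and 17.1 (log2 10.18, adjusted p = 0.000379). Both calls held with each library left out. In microglia sEVs it had 20.4, 379.7 and 251 CPM against 0, 23.3 and 0 in cells, and the call there (0.0319) was lost in 11 such fits. Gm43305 averaged 12.2, 269 and 96.0 CPM in astrocyte, microglia and neuron sEVs and had 0 reads in all cell libraries.

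Gm42047, Gm10925, Gm28437 and Gm28661 differed many-fold between replicates of a group. Gm10925 had 13700 CPM in neuron cells replicate 1 but 87.7 and 323 in the others, and 95.4, 7408 and 615 in astrocyte cells. Gm42047 had 11082, 754 and 759 CPM in neuron sEVs and 4553, 153 and 589 in astrocyte sEVs, against at most 48.0 in any cell library. Its call in astrocytes (adjusted p = 0.0149) was lost without cell replicate 1 (0.0663) or 2 (0.0823) or sEV replicate 1 (0.0733). Gm28437 and Gm28661 were lower in sEVs in the mean of the cell types (log2 -5.32 and -5.59, adjusted p = 0.000513 and 0.0071). Rn18s-rs5, related to 18S ribosomal RNA, was higher in sEVs in that mean (log2 2.05, adjusted p = 0.00142). Gm10925, typed as a pseudogene, had 6617 of the 23007 mono-exon reads in neuron cells replicate 1. It weighs on the pseudogene class there, as Gm28437 and Gm28661 do on the class with no RefSeq match. Whether reads of these 3 genes came from similar sequences elsewhere, mitochondrial ones included, was not tested, so their levels are uncertain.

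Of 31 histone members 9 were tested, and polyadenylated libraries miss most replication-dependent histone mRNA, which lacks a poly(A) tail. In astrocyte sEVs 0 rose and H2ax fell, in microglia sEVs H1f0 rose and 0 fell, and in neuron sEVs 0 rose and H2aw and H2ax fell, beside 15.5%, 9.36% and 27.2% of all isoforms. In the mean of the 3 types 4 of the 9 were called, H1f0 and H2aj higher and H2aw and H2ax lower, beside 28% of all isoforms. H1f0, a linker histone of non-dividing cells, had 175, 407 and 198 CPM in microglia sEVs against 99.7, 76.5 and 36.5 in microglia cells, with no overlap (log2 1.88 ± 0.49, adjusted p = 0.0274). The call was lost without any 1 microglia cell library (0.0589 to 0.158), microglia sEV replicate 2 (0.151), or astrocyte or neuron cells replicate 2 (0.0517 and 0.0526). H2ax, the variant phosphorylated at DNA breaks, had 35.1, 28.7 and 24.4 CPM in neuron sEVs against 141, 116 and 154 in neuron cells (log2 -2.21, adjusted p = 0.0289, lost in 14 such fits). In the mean of the cell types its log2 difference was -2.44 (adjusted p = 0.000574).

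Among cells, each type was set against the mean of the other 2, so these 3 comparisons share libraries, and those among sEVs do likewise. Their log2 differences use the mean of the log levels of the other 2 types, while the CPM averages are plain means. Where 1 of the other types has 0 or few reads, the log2 difference is thus larger than the CPM averages give. Astrocyte cells differed in 25 of the 261 transcripts, 21 higher and 4 lower, against 7.91% of all isoforms (5.77% higher and 2.13% lower). Library totals without TMM gave 39 higher and 0 lower, DESeq2 gave 28 higher and 15 lower, and leaving out 1 cell library gave 10 to 16. Mono-exon Mt1 averaged 159 ± 48.1 CPM in astrocyte cells against 3.09 in the others (log2 6.99 ± 0.96, adjusted p = 0.00288). Olig1 averaged 490 ± 90.1 against 132 CPM (log2 5.93, adjusted p = 6.43e-05), with 335, 177 and 280 CPM in neuron cells and 0 reads in microglia cells. Oligodendrocyte markers, among which Olig1 is counted, stood at 6319 RPM in astrocyte cells, 99.4 in microglia cells and 1126 in neuron cells. Tril, a partner of Toll-like receptors in glia, averaged 135 ± 24.0 against 13.1 CPM (log2 5.74, adjusted p = 0.00493). These 3 held with each library left out. The mono-exon form of Apoe, the brain's main lipid carrier, had 646, 24.1 and 63.4 CPM against 0 in the other cells, but its call (0.0388) was lost in 9 such fits and with DESeq2 (0.154). It was 0.623% of the Apoe reads in astrocyte cells, and other Apoe isoforms averaged 38525 CPM there, 35199 in microglia cells and 5336 in neuron cells. Kcne1l, a regulatory subunit of potassium channels, averaged 116 against 2.33 CPM (0.0112, and 0.0501 to 0.0561 without astrocyte cells replicate 2 or 3 or neuron cells replicate 1 or 3).

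Microglia cells differed in 93 transcripts, 25 higher and 68 lower, against 35.4% of all isoforms (18.3% higher and 17.1% lower). Without microglia cells replicate 1, 2 or 3 the count was 58, 59 or 58. Ch25h, which makes the oxysterol 25-hydroxycholesterol in activated macrophages, had 639, 1368 and 879 CPM in microglia cells and 0 reads in the 6 other cell libraries, at least 173-fold higher (adjusted p = 7.75e-06). The mono-exon form of Cd14, a co-receptor for lipopolysaccharide, had 292, 349 and 357 CPM against 0, at least 60.0-fold higher (1.25e-05), beside other isoforms at 13469 CPM in microglia cells. Hcar2, a receptor for ketone bodies and niacin, had 196, 246 and 151 CPM against 0, at least 35.6-fold higher (3.38e-05). Ifnb1, interferon beta, had 115, 76.5 and 75.6 CPM against 0, at least 16-fold higher (0.000436). Mono-exon Cd69 also had 0 reads in the other cells (0.000915, and 0.0912 with DESeq2). Arxes2, Arxes1, Olig1, Nap1l5 and Mageh1 had 0 reads in microglia cells and were at least 82.9, 62.2, 39.2, 29.9 and 18.6-fold lower than in the others.

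Neuron cells differed in 73 transcripts, 67 higher and 6 lower, against 19.3% of all isoforms (15% higher and 4.27% lower). Leaving out 1 of the 9 cell libraries gave 34 to 48, lowest without neuron cells replicate 1. Kcnf1, a potassium channel subunit that modifies Kv2 channels, had 101, 76.5 and 107 CPM in neuron cells and 0 in the others, at least 13-fold higher (adjusted p = 0.00066). Kctd16, an auxiliary subunit of GABA-B receptors, had 99.4, 59.7 and 105 CPM against 0, at least 12-fold higher (0.00119). Rprml and Fibin also had 0 reads in the other cells and were at least 11.3 and 5.47-fold higher (0.00111 and 0.00382). Arxes1 averaged 996 ± 81.7 CPM against 101 (log2 7.15, adjusted p = 3.92e-05), and astrocyte cells lay between neurons and microglia. Ier2 and Chmp1b, an ESCRT-III subunit, were lower in neuron cells (log2 -1.98 and -1.62, adjusted p = 0.00902 and 0.00541). Ier2 was lost without neuron cells replicate 1 (0.0573). Jun and Junb were lower there too, with calls lost in 8 and 11 fits that left out 1 library.

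Among sEVs the same comparison was made. Astrocyte sEVs differed in 41 transcripts, 39 higher and 2 lower, against 11.4% of all isoforms (8.61% higher and 2.83% lower). DESeq2 gave 49 higher and 10 lower, and leaving out 1 library gave 22 to 33. It was 27 or fewer without any 1 of the astrocyte cell or neuron sEV libraries, neuron cells replicate 3, astrocyte sEV replicate 2 or 3, or microglia sEV replicate 1. Malat1 averaged 2014 ± 1254 CPM in astrocyte sEVs against 206 in the other sEVs (log2 3.98 ± 0.42, adjusted p = 7.05e-05), and Jun 66.1 ± 21.7 against 17.3 CPM (log2 2.00, adjusted p = 0.00348). Sox2, a factor of neural stem cells and astrocytes, averaged 42.4 ± 14.2 against 7.98 CPM (log2 4.41, adjusted p = 0.0138, and 0.0505 without astrocyte sEV replicate 3). The lowest astrocyte library of each lay above all other sEV libraries, as the rule for naming them required.

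Microglia sEVs differed in 121 transcripts, 17 higher and 104 lower, against 39.1% of all isoforms (21.7% higher and 17.4% lower). The share called lower thus stood above that of all isoforms, and the share called higher below it. Ch25h had 275, 495 and 340.3 CPM in microglia sEVs and 0 in the other sEVs, at least 68.0-fold higher (adjusted p = 1.23e-05). Hcar2 had 85.7, 61.9 and 82.3 CPM against 0, at least 14.1-fold higher (5.92e-05). Cd14 averaged 266 ± 115 CPM against 3.43 (log2 6.43, adjusted p = 5.29e-05). Cebpd, an inflammatory transcription factor, averaged 79.6 ± 35.3 against 5.09 CPM (log2 4.07, adjusted p = 0.00269), and Maf, a macrophage factor, 42.8 against 1.98 CPM (0.0227, lost in 9 fits with 1 library left out). Amer2, Tril, Igip, Galnt11 and Zfp369 had 0 reads in microglia sEVs and were at least 54.4, 37.0, 29.9, 28.8 and 24.4-fold lower than in the others.

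Neuron sEVs differed in 102 transcripts, 98 higher and 4 lower, against 25.7% of all isoforms (16.8% higher and 8.9% lower). Kcnf1 had 66.8, 64.0 and 35.6 CPM in neuron sEVs and 0 in the other sEVs, at least 10.0-fold higher (adjusted p = 0.00051). Sox11 averaged 362 ± 91.3 CPM against 17.3 (log2 6.95 ± 0.79, adjusted p = 0.000355), Dbpht2 99.4 ± 19.1 against 2.22 (6.6, 0.00565), and Rtl6 256 ± 44.8 against 26.9 (6.14, 0.000271). Gp1bb, a platelet glycoprotein gene, averaged 52.4 ± 21.4 against 1.22 CPM (6.04, 0.00806). Rrs1, a ribosome biogenesis gene, Chmp1b and Rraga were lower (log2 -2.80, -2.19 and -1.37, adjusted p = 0.00313, 0.000682 and 0.00068). All of these held with each library left out. Neuron sEVs lay on 1 side of all other sEVs for each, as the rule for naming them required.

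The length of the gene was set beside the sEV minus cell difference for the 121 tested protein-coding genes with no other isoform, as a description across genes that are not independent replicates. RefSeq gene spans had a median of 2529 bases. Spearman's rho with the log2 difference was 0.478 in astrocytes, 0.0923 in microglia and 0.368 in neurons. Genes called higher in astrocyte sEVs had a median span of 3270 bases and those called lower 1666, and in neurons the medians were 3053 and 2181. The genes share their libraries, and in astrocytes and neurons longer genes had the more positive differences.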

How the data were processed

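Polyadenylated, DNase-treated RNA from sEVs and cells was sequenced as PacBio long reads. The deposited table gives whole-number read counts per isoform and library, with each isoform's category from the authors. Per the submitters' processing notes, minimap2 and GRCm39 were used. The version of minimap2 is not given in the sources used here, nor is the tool that called isoforms or the gene models it used. The counts are not normalized. The table was used as deposited, with 18 columns matched to samples by name.

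Isoforms were filtered by filterByExpr with the 6 groups, scaled by TMM and fitted with edgeR 4.0.16 (quasi-likelihood, R 4.3.3), with 1 mean per group for all 18 libraries. P-values were adjusted by Benjamini-Hochberg over all 9370 isoforms tested, at 0.05. CPM uses TMM-scaled totals, and RPM and shares use library totals as deposited. A group at 0 reads was set to 3 reads per library for fold limits. Shares, usage and detection were compared by exact two-sided permutation of libraries within cell types, with 8000 arrangements over the 3 types, whose smallest p is 0.00025. Scripts were tested on simulated counts for astrocyte sEVs against cells over 7539 isoforms: 30% of 4-fold and 96% of 16-fold changes were recovered, so 4-fold changes are often missed. The simulated spread was smaller than that fitted to the data, where the biological coefficient of variation was 0.825. Changes were placed only in isoforms with enough expected reads, so recovery in the data may be lower.

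Gene types and promoter sequences came from RefSeq (GRCm38.p6), by symbol for 1292 members and by synonym for 6. Gene spans and the coordinates of 1 pair of promoter windows are those of GRCm38.p6, while the reads were aligned to GRCm39, and no read was placed by them. The members, gene lists and tests were chosen with earlier results of these data known. Genes were named if they were among the 15 with the most reads, among the 10 largest changes each way with an adjusted p under 0.05, no overlap of groups and a mean count of 20 or more, among the 10 smallest p-values of the mean and the interaction, among the 5 largest changes of a cell type, or examples from a list. Predicted genes were passed over outside the first rule and counts. Gm43305, Nagk and Pid1 were named after their values were seen. Alternatives were library totals without TMM, DESeq2 1.42.0, no low-count filter, a replicate block, only the 2 groups compared, and each library left out. Deviations of cells and sEVs with the same replicate number showed no clear correlation (-0.039 to 0.060). Counting noise at low reads can hide a pairing, so this does not exclude that the replicate numbers pair samples.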

Additional observations from a re-analysis of the deposited data

Results flagged for a closer look

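For 4 mono-exon transcripts the sEV minus cell difference varied between the 3 cell types, by edgeR's quasi-likelihood test of the interaction. That was 1.53% of the 261 tested, close to the 1.22% of all isoforms. The adjusted p was 0.00845 for Rraga, 0.0322 for Malat1, 0.0423 for Rpl10-ps3 and 0.0475 for Arxes1. Malat1 averaged 2014 ± 1254 CPM in astrocyte sEVs against 15824 ± 1150 in astrocyte cells, 43.7 ± 18.1 against 5056 ± 2279 in microglia, and 369 ± 134 against 12454 ± 4792 in neurons (SD, n = 3 each). It fell in all 3 types, with log2 differences of -2.97, -6.85 and -5.08. Rraga averaged 116 ± 9.94 CPM in astrocyte sEVs against 222 ± 22.5 in their cells, 142 ± 42 against 119 ± 7.85 in microglia, and 49.5 ± 4.01 against 221 ± 25.2 in neurons. Rpl10-ps3 averaged 172 ± 4.74 CPM against 112 ± 26.1 in astrocytes, 429 ± 108 against 318 ± 30.5 in microglia, and 668 ± 117 against 141 ± 39.7 in neurons. Arxes1 averaged 14.4 ± 3.12 CPM against 201 ± 41.9 in astrocytes and 20.7 ± 9.48 against 996 ± 81.7 in neurons, while microglia sEVs had 2.84 ± 4.93 CPM and microglia cells 0. The number called fell to 0 to 2 when any 1 library was left out other than astrocyte sEV replicate 1 or 3 or microglia sEV replicate 1 or 3.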

How the results depend on the processing

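Numbers of mono-exon transcripts called differed with the setting. Without TMM 39 were called for astrocyte cells against the other cells. DESeq2 called 86 for astrocyte sEVs against cells, 43 for astrocyte cells and 24 for the interaction. Without the low-count filter the numbers were 36, 14 and 46 for sEVs against cells in astrocytes, microglia and neurons, 14 for the interaction, 14, 47 and 37 for astrocyte, microglia and neuron cells, and 19 and 68 for astrocyte and microglia sEVs. With the replicate number as a block, 13, 2 and 23 were called for sEVs against cells in astrocytes, microglia and neurons. The same fit called 42 for their mean, 0 for the interaction, 15 and 48 for astrocyte and neuron cells, and 24 for astrocyte sEVs. It is not known if the replicate numbers pair samples. With only the 2 groups in the fit, microglia sEVs against cells gave 14. With 1 library left out, the numbers for sEVs against cells ranged from 29 to 60 in astrocytes, 8 to 18 in microglia, 49 to 90 in neurons, 71 to 84 for the mean and 0 to 5 for the interaction. For astrocyte, microglia and neuron cells they ranged from 10 to 25, 58 to 98 and 34 to 73, and for sEVs from 22 to 33, 105 to 124 and 77 to 100. The cause was not tested.

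The sEV minus cell difference in the share of reads became positive without Malat1 (0.626, 0.0131 and 1.04 points in astrocytes, microglia and neurons, mean 0.561), without the 10 transcripts with the most reads (0.223, 0.129 and 0.595, mean 0.316), for protein-coding members in astrocytes (0.0026) and microglia (0.00595), and as a share of full-splice matches in neurons (0.0902). With 1 library left out it ranged from -1.06 to -0.544 in astrocytes, -0.366 to -0.222 in microglia, -0.426 to 0.354 in neurons and -0.477 to -0.217 for the mean. In neurons it was 0.354 without cell replicate 1, 0.189 without sEV replicate 2 and 0.0677 without sEV replicate 3. The usage difference was -0.226 points as a mean over genes and -4.10 to -2.25 with 1 library left out. The number of transcripts seen differed by -64.8 without thinning (exact permutation p = 0.03825), by 42.1 at 5 or more reads (exact permutation p = 0.00125), and by -53.9 to -20.2 with 1 library left out. Of the alternatives for single named genes 7802 kept the call, 1641 lost it and 0 changed direction. Summing isoforms per gene was not run, as each gene has 1 member, nor was leaving out members marked in the IEJ column, as there are 0. Depth limits the median transcript, with 6 reads in all, to presence or absence.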
